A study of Mus musculus with 36 samples.

Results

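Carotid arteries of mice lie in fat that can include brown fat, and 20 of 36 bulk RNA-seq libraries of ligated left carotid arteries are compared here by how much brown fat RNA they held. Within each strain the 18 libraries were ranked by the CPM (counts divided by the library's total and multiplied by 1e+06) of Ucp1, the gene of the uncoupling protein that marks thermogenic fat. The top 5 libraries of each strain were chosen by that measured value as the 10 rich libraries and the bottom 5 of each strain as the 10 poor libraries, and 16 libraries fall in neither class. Because the classes were formed from measured Ucp1, its own difference is a description, and the p-values of other genes describe how they varied with that ranking, not the effect of a treatment.

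The series holds 12 groups of 3 mice from 129X1/SvJ (129X1) or C57BL/6J (B6) animals, some of the B6 labels giving only C57BL/6. All left carotid arteries were ligated and were collected 14 days later. Mice of each strain received sacubitril/valsartan (Sac/val, a neprilysin inhibitor joined to an angiotensin receptor blocker) at 60 mg/kg/day, valsartan alone (Val) at 27 mg/kg/day, or vehicle at 2 mL/kg/day. Dosing was therapeutic, from day 7 after ligation for 7 days, or prophylactic, from 2 days before ligation for 16 days. No unligated artery is among the libraries, and age, sex and the extent of trimming of the surrounding tissue were not given in the sources used here. Library totals ran from 18962081 to 28967579 counts with a median of 22784812, and 21810 to 24467 genes had at least 1 count.

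Brown adipocytes burn fatty acids in densely packed mitochondria and release the energy as heat, because UCP1 lets protons return across the inner membrane without making ATP. Noradrenaline from sympathetic nerves starts the process through beta-adrenergic receptors and cyclic AMP, which release stored fatty acids and raise transcription of thermogenic genes. In mice, fat of this kind lies along the large arteries of the chest and neck, next to thymus, thyroid, parathyroid and muscle, so each of these tissues can enter an arterial sample. In bulk RNA, fewer cells of a type and less RNA per cell cannot be told apart.

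Among the 129X1 rich libraries, Ucp1 was 3213, 3094, 3078, 2779 and 2706 CPM, against 1879, 1439.5, 1418, 1329 and 899 CPM in the 129X1 poor libraries. The B6 rich libraries had 1751, 1528, 1264, 1092 and 1087 CPM, against 452, 435, 375, 365 and 76.1 CPM in the B6 poor libraries. The poor 129X1 libraries thus overlapped the range of the rich B6 libraries, and the classes only have meaning within a strain. Rich libraries averaged 2974 ± 219 CPM and poor libraries 1393 ± 349 CPM in 129X1 (SD, n = 5 each), a ratio of 2.14. In B6 the averages were 1344 ± 290 CPM in rich and 341 ± 153 CPM in poor libraries, a ratio of 3.95. The cuts fell in gaps of unequal width: the last rich and the first excluded library had 2706 and 2584 CPM in 129X1 and 1087 and 1072 CPM in B6, and the last excluded and first poor library had 2044 and 1879 CPM in 129X1 and 503 and 452 CPM in B6. Ranking by the mean level of the other brown fat effectors placed 9 of 10 rich and 9 of 10 poor libraries in the same class. Those effectors were chosen with earlier results of these libraries known, so this is not independent support for the classes.

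**Figure D1:**
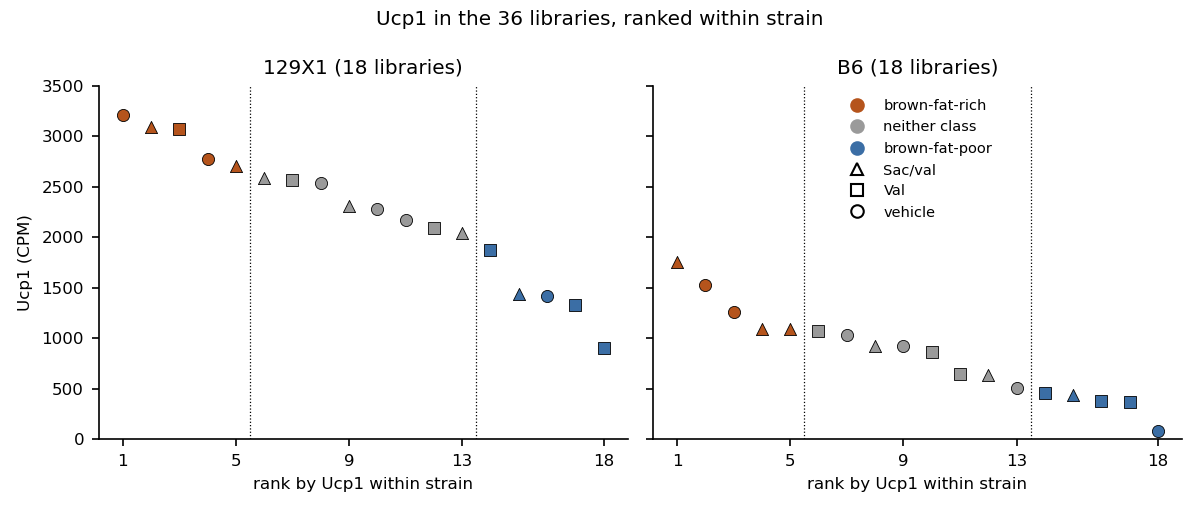
Ucp1 level (CPM) of each of the 36 libraries, ordered by rank within 129X1 (left) and B6 (right), with the rich libraries first, then those in neither class, then the poor libraries; colour gives the class and marker shape the treatment. The 129X1 libraries run from 3213 to 899 CPM and the B6 libraries from 1751 to 76.1 CPM, so the B6 rich libraries overlap the 129X1 poor ones.

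The labels that the ranking did not use were compared with Ucp1 over all libraries. Strain differed most: Ucp1 averaged 2246 ± 658 CPM in 129X1 and 834 ± 437 CPM in B6 libraries (SD, n = 18 each), a log2 difference of 1.62 that was positive in 6 of 6 treatment and regimen strata (two-sided permutation test, p = 1e-05, the smallest the 100000 resamples can give; 4e-05 after Benjamini-Hochberg adjustment over 4 tests). Sac/val libraries averaged 1675 ± 873 CPM and vehicle libraries 1643 ± 958 CPM (SD, n = 12 each), and the log2 difference of 0.23, positive in 3 of 4 strata, did not pass (exact two-sided permutation test within strata, p = 0.653, adjusted 0.653). Val libraries averaged 1302 ± 905 CPM, against the same vehicle libraries, a log2 difference of -0.25 that was negative in 4 of 4 strata and did not pass (exact permutation test, p = 0.561, adjusted 0.653). Without 1 library, B6 vehicle prophylactic replicate 3 at 76.1 CPM, these differences were -0.12 for Sac/val (exact permutation p = 0.596) and -0.60 for Val (exact permutation p = 0.038, unadjusted). Therapeutic libraries averaged 1617 ± 903 CPM and prophylactic libraries 1463 ± 922 CPM (SD, n = 18 each), a log2 difference of 0.27 (permutation p = 0.37, adjusted 0.653). The classes were not balanced over treatments: the rich class held 5 Sac/val, 1 Val and 4 vehicle libraries, and the poor class 2 Sac/val, 6 Val and 2 vehicle libraries. None of the 5 rich B6 libraries came from a Val mouse.

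Of 17407 genes tested, 2034 were higher and 942 lower in rich than in poor libraries with strain as a covariate (edgeR quasi-likelihood test, Benjamini-Hochberg adjusted p below 0.05), which is 17.1% of tested genes, with 11.7% upward and 5.41% downward. The median log2 difference over all tested genes was -0.09. Scaling by total counts alone put that median at -0.26 and turned the balance of calls, with 1410 genes higher and 4847 lower, so that 22.5% of calls were upward in place of 68.3%. Scaling by DESeq2 size factors gave a median of -0.07 and 75.4% upward calls. In both strains at once, without any overlap between the classes, 279 genes lay higher in rich libraries (1.6% of those tested), and 1.01% of tested genes lay lower.

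The 17 tested brown fat effectors besides Ucp1, genes of the thermogenic machinery, were all higher in rich libraries, against 11.7% of all genes, with a median log2 difference of 1.41 beside -0.09 over all genes. The list was chosen with earlier results of these libraries known, so its count is not independent evidence of its direction. Cidea, a lipid droplet protein enriched in brown fat, measured 1239, 1025, 1414, 1058 and 746 CPM in 129X1 rich libraries, against 880.1, 691, 570.0, 453 and 433 CPM in 129X1 poor libraries. B6 levels were 908, 693, 815, 565 and 731 CPM in rich libraries, against 201, 195, 167.4, 233 and 45.4 CPM in poor libraries. The B6 classes stood well apart, while in 129X1 the lowest rich library was below the highest poor one. The fitted log2 difference of Cidea was 1.68 (SE 0.27, edgeR adjusted p = 0.000183).

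Elovl3, which lengthens very long chain fatty acids in brown fat, gave the steepest difference of the named genes that stood apart in both strains. It measured 172.5, 129, 189.7, 110.4 and 82.9 CPM in 129X1 rich libraries, against 66.8, 63.8, 45.6, 33.4 and 33.4 CPM in 129X1 poor libraries. Among B6 libraries, rich ones had 49.3, 35.7, 26.6, 27.5 and 22.3 CPM, against 10.9, 11.2, 12.0, 6.56 and 2.12 CPM in poor ones. Neither strain's classes overlapped, although the B6 rich libraries sat at the level of the 129X1 poor ones; the log2 difference was 1.89 (SE 0.26, edgeR adjusted p = 4.9e-05). Letmd1, a mitochondrial protein needed for brown fat thermogenesis, followed the ranking most closely, with a Spearman correlation with Ucp1 of 0.96 over the 36 libraries after centring within strain. The points of that correlation share library composition and depth, and it is given as a description. Its levels were 471, 421, 404, 395 and 332 CPM in 129X1 rich libraries, against 320.4, 272, 242, 205 and 142.1 CPM in 129X1 poor libraries. In B6 they were 373, 272, 231, 210.1 and 262 CPM in rich libraries, against 108, 91.6, 91.2, 106.1 and 51.3 CPM in poor libraries. Both strains separated without overlap, and the log2 difference was 1.37 (SE 0.18). Letm1, a gene with a similar symbol, was also among the 10 with the highest rank correlation with Ucp1. It averaged 225 ± 67.4 CPM in rich and 132 ± 51.7 CPM in poor libraries (SD, n = 10 each).

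Differences of the other effectors varied in size. Cox7a1 and Cox8b, the subunits of cytochrome c oxidase used in heart, muscle and brown fat, differed by 1.61 and 1.52 on the log2 scale, and both separated without overlap in each strain. Pank1, the first enzyme of coenzyme A synthesis, differed by 1.54 and Fabp3, a fatty acid carrier, by 1.74. Otop1, a proton channel, averaged 136 ± 54.4 CPM in rich and 63.8 ± 37.0 CPM in poor libraries (SD, n = 10 each), and Kcnk3, a potassium channel that restrains the adrenergic response of brown adipocytes, averaged 226 ± 61.6 CPM in rich and 107.3 ± 54.1 CPM in poor libraries. The smallest differences among the effectors named here were those of S100b at 0.71 and Mpzl2 at 0.95 on the log2 scale.

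Of Ucp1's relatives, Ucp3 went with it and Ucp2 did not. Ucp3, an anion carrier of muscle and brown fat mitochondria, averaged 108 ± 34.4 CPM in rich and 54.6 ± 31.6 CPM in poor libraries (SD, n = 10 each), with no overlap in either strain and a log2 difference of 1.34 (SE 0.18, edgeR adjusted p = 4e-05). Ucp2, abundant in macrophages and lymphoid cells, averaged 328 ± 95.5 CPM in rich and 479.5 ± 109.7 CPM in poor libraries, a log2 difference of -0.39 that did not pass (SE 0.17, edgeR adjusted p = 0.106). Of 7 tested carriers of this family besides Ucp1, Ucp3 alone passed, and the median of the 7 was 0.02 with TMM scaling and -0.18 with total counts. With total counts Ucp3 was still called higher and 3 of the 7 were lower, where 4847 of 17407 genes were lower. Ucp2 was 1 of these 3, at -0.56 (edgeR adjusted p = 0.0212), so its call depends on the scaling. Slc25a4, the ADP/ATP carrier of heart and muscle, averaged 537 ± 177 CPM in rich and 449 ± 268 CPM in poor libraries, which did not pass (edgeR adjusted p = 0.201).

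**Figure D2:**
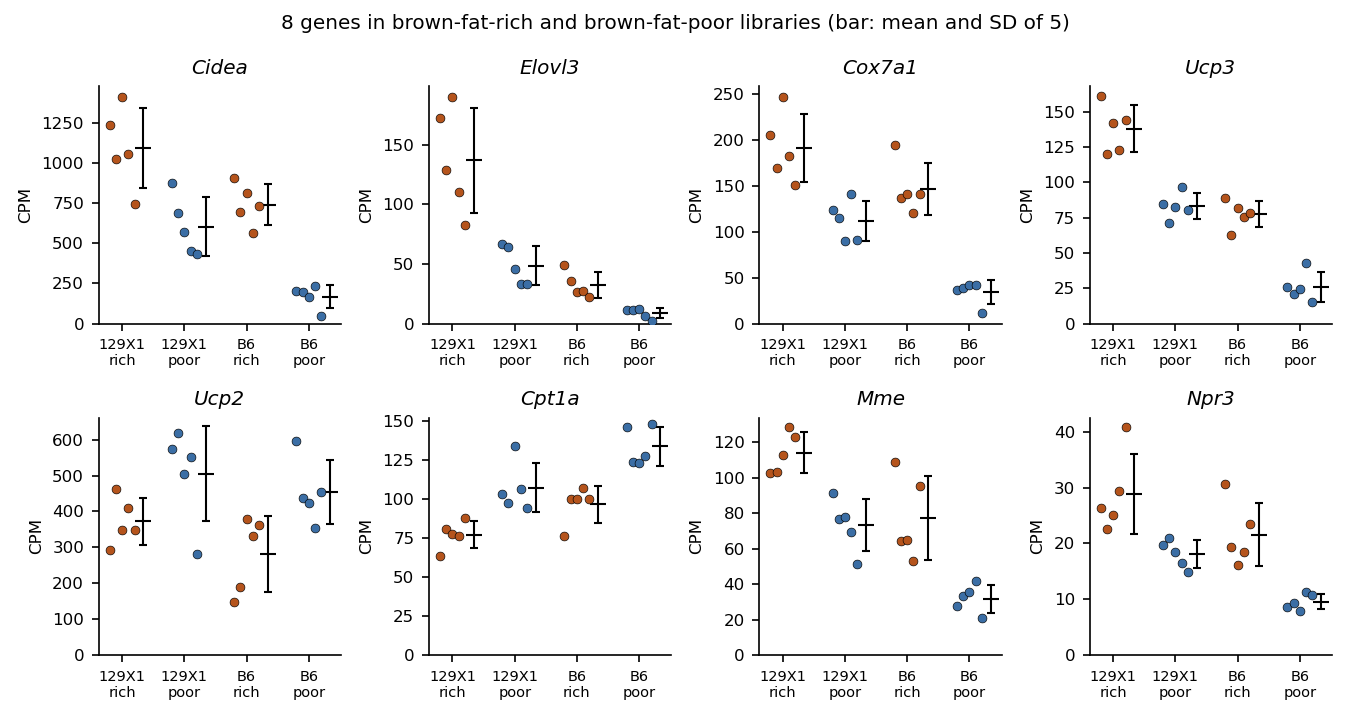
Level (CPM, linear axis from 0) of Cidea, Elovl3, Cox7a1, Ucp3, Ucp2, Cpt1a, Mme and Npr3 in each library, with points in order of Ucp1 rank and a bar for the mean and SD of the 5 libraries of a class and strain. Within each strain Elovl3, Cox7a1, Ucp3, Mme and Npr3 are higher in rich (orange) than in poor (blue) libraries without overlap, Cidea overlaps in 129X1, and Cpt1a is lower in rich libraries.

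Dio2, the deiodinase that makes active thyroid hormone inside brown adipocytes, is a cyclic AMP target, and its promoter is shown with those of Ucp1 and of genes of the respiratory chain because these genes moved together with the ranking. Promoters are those of RefSeq on GRCm38.p6, from 250 bases before to 50 bases after the start, printed 5′ to 3′ on the gene's strand. Capitals mark matches to a cyclic AMP response element (TGACGTCA), an ERR element (AAGGTCA, or TGACCTT read from the other strand) or the core of an NRF1 element (GCGCANGCG), searched on both strands. The genes were chosen after the matches had been seen.
Ucp1 (chr8:83290098-83290397, + strand): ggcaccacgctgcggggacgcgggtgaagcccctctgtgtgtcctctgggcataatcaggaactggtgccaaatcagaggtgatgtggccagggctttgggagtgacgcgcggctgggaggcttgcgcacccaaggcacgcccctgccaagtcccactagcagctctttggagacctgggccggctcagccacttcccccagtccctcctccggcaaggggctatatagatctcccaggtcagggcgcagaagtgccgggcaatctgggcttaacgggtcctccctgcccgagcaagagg
Dio2 (chr12:90738989-90739288, - strand): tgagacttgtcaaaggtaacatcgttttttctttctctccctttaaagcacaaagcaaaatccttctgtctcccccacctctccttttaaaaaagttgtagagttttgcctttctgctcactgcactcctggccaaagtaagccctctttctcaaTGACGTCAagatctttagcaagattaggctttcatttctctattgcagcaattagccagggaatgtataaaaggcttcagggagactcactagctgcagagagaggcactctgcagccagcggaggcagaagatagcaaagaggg
Sdhd (chr9:50603800-50604099, - strand): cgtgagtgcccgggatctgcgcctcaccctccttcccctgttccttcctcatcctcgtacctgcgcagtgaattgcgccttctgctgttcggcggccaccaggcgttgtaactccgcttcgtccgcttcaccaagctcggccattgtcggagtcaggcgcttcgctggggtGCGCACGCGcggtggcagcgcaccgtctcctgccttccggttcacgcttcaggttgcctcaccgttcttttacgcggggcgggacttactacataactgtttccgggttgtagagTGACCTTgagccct
Uqcrc1 (chr9:108936398-108936697, + strand): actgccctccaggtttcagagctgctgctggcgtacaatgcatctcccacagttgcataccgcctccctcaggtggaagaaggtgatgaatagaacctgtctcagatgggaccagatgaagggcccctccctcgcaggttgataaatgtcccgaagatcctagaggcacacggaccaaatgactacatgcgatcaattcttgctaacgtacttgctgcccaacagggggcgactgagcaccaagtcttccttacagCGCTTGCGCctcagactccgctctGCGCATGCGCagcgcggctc
The Ucp1 window held none of these letters, which bears only on this window. The Dio2 window held the cyclic AMP element starting 95 bases upstream, that of Sdhd an NRF1 element 79 bases upstream and an ERR element 36 bases downstream of the start, and that of Uqcrc1 NRF1 elements 6 and 30 bases downstream, the second of which overlaps a match on the other strand.

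Over all 32851 RefSeq promoters, 1.79% held the cyclic AMP element, 4.72% the ERR element and 6.25% the NRF1 element. These promoters belong to 27025 genes and so include genes not tested here, unlike the sets below that are drawn from tested genes. Among 1867 promoters of 1498 matched genes higher in rich libraries the shares were 3.7%, 4.98% and 13.5%, and among 931 promoters of 715 matched genes lower in rich libraries 2.04%, 2.69% and 14.3%. The NRF1 share was thus about as large in the lower genes as in the higher ones. The 70 promoters of 65 matched genes of complexes I to V held these elements in 5.71%, 11.4% and 30.0%. These shares describe letters and were not tested.

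Dio2 itself measured 86.3, 101, 86.8, 112 and 104.3 CPM in 129X1 rich libraries, against 61.8, 52.0, 56.1, 47.8 and 24.9 CPM in 129X1 poor libraries. In B6 it measured 102, 75.9, 118, 72.4 and 70.1 CPM in rich libraries, against 33.7, 53.7, 72.2, 43.6 and 46.4 CPM in poor libraries. Unlike Ucp1, it lay at like levels in the rich libraries of both strains, and 1 poor B6 library reached the range of the rich ones. Its log2 difference was 1.11 (SE 0.16, edgeR adjusted p = 5.6e-05).

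Genes of the signal that activates brown fat were higher as well. Of 14 tested genes of adrenergic and cyclic AMP signalling, 9 were higher, against 11.7% of all genes, and none lower. The median log2 difference was 0.79. Adrb3, the beta receptor of adipocytes, averaged 132 ± 44.6 CPM in rich and 84.2 ± 16.3 CPM in poor libraries (SD, n = 10 each), a log2 difference of 0.83, and Adrb1, the beta receptor shared with heart, averaged 12.6 ± 3.65 CPM in rich and 6.42 ± 3.96 CPM in poor libraries, a difference of 1.34. Adra1a, an alpha receptor, differed by 1.55 without overlap in either strain. Adcy3, which makes cyclic AMP, Prkar2b, the regulatory subunit of protein kinase A found in adipocytes, and Akap1, which anchors that kinase at mitochondria, differed by 0.97, 1.22 and 1.17 on the log2 scale. Gnas, the stimulatory G protein, averaged 2281 ± 640.1 CPM in rich and 1558 ± 416 CPM in poor libraries.

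Of 18 brown fat regulators, 12 were higher, against 11.7% of all genes, and none lower, with a median of 0.80. The coactivators Ppargc1a and Ppargc1b, which drive mitochondrial gene programs, differed by 1.13 and 1.34 on the log2 scale. Pparg, the master regulator of fat cells, differed by 1.03, Ppara, a regulator of fatty acid oxidation, by 1.84 with a wide SE of 0.49, and Esrra, an orphan receptor that acts on genes of oxidative metabolism, by 0.80 (SE 0.09). Prdm16, a determinant of brown fat identity, averaged 29.7 ± 3.77 CPM in rich and 22.4 ± 4.22 CPM in poor libraries (log2 difference 0.59), and Ebf2, another, 50.8 ± 9.28 CPM in rich and 39.8 ± 7.52 CPM in poor libraries (0.54, edgeR adjusted p = 0.013). Beige and white fat markers gave no upward and 1 downward call among 11 tested, where 11.7% and 5.41% of all genes were called. The list median was -0.04. The single lower one was Tmem26, a membrane protein of beige adipocytes, at 1.46 ± 0.779 CPM in rich and 2.78 ± 1.46 CPM in poor libraries (log2 difference -0.69, edgeR adjusted p = 0.0355).

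Genes that brown and white adipocytes share were higher as well. All 18 tested common adipocyte genes were higher, against 11.7% of all genes, with a median of 0.97. Their summed level was 20271 to 37325 CPM in rich libraries and 8940.2 to 25922 CPM in poor libraries. Fabp4, the fatty acid carrier of adipocytes, measured 6098, 5159, 6033, 5959 and 4249 CPM in 129X1 rich libraries, against 4239, 3258, 2979, 3125 and 2855 CPM in 129X1 poor libraries. The B6 rich libraries had 5466, 3583, 3725, 3401 and 4509 CPM, against 1494, 2269.9, 2331, 2644 and 1217 CPM in the B6 poor libraries. The classes did not overlap, but the lowest rich and highest poor 129X1 libraries were almost level, and the log2 difference was 1.08 (SE 0.16, edgeR adjusted p = 8.1e-05). Plin1, which coats the lipid droplet, Pnpla2, the first lipase of stored fat, and Car3, an abundant adipocyte enzyme, differed by 0.96, 1.09 and 0.84 on the log2 scale.

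Among 16 tested adipokines and secreted brown fat factors, 8 were higher and none lower, where 11.7% and 5.41% of all genes were. The list median was 0.49. Adipoq, the gene of adiponectin, averaged 697 ± 108 CPM in rich and 438 ± 120.5 CPM in poor libraries (SD, n = 10 each), a log2 difference of 0.87. Nrg4, a growth factor secreted by brown fat, differed by 1.05, and Ptgds, a prostaglandin D synthase, by 1.68 at a low level of 4.18 ± 1.40 CPM in rich and 1.61 ± 0.936 CPM in poor libraries. Lep, the gene of leptin and typical of white fat, averaged 25.1 ± 12.7 CPM in rich and 20.5 ± 7.64 CPM in poor libraries, which did not pass (edgeR adjusted p = 0.279). Retn, the gene of resistin, did not pass either (log2 difference 0.40, edgeR adjusted p = 0.148), and Cfd, the gene of adipsin, passed by a small margin (0.48, edgeR adjusted p = 0.0349).

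Lipid synthesis carried large counts and a wide spread. Of 17 tested genes, 13 were higher and none lower, where 11.7% and 5.41% of all genes were. The list median was 1.09. Without the 7 class libraries that held at least 10 CPM of the thymus gene Rag1, 8 were higher. Among poor 129X1 libraries, the fit without those 7 keeps only Val prophylactic replicate 1, so it rests mostly on B6. Scd1, the desaturase that makes oleic acid, measured 24896, 16275, 16584, 13262 and 6254 CPM in 129X1 rich libraries, against 9152, 12568, 10569.9, 5449 and 12578 CPM in 129X1 poor libraries. B6 levels were 20635, 10729, 11645, 11434 and 17022 CPM in rich libraries, against 6373, 4043, 4773, 9046 and 2177 CPM in poor libraries. In 129X1 the classes overlapped, with the second lowest value of all 10 in a rich library, and in B6 they did not; the log2 difference was 1.22 (SE 0.29, edgeR adjusted p = 0.00646). Fasn, fatty acid synthase, averaged 12264 ± 7442 CPM in rich and 6859.9 ± 4146 CPM in poor libraries (log2 difference 1.09, edgeR adjusted p = 0.0187). Without the libraries rich in Rag1 neither Scd1 nor Fasn passed, at edgeR adjusted p = 0.0779 and 0.158, with log2 differences of 1.38 and 1.13. Acacb, which makes the malonyl-CoA that restrains fatty acid entry into mitochondria, and Thrsp, a lipogenic factor, differed by 1.40 and 1.16.

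Release and uptake of lipid gave 14 higher genes of 15 tested, against 11.7% of all genes, with a median of 0.96. Gpd1, the cytosolic dehydrogenase that links glycolysis to glycerol and to electron transfer, averaged 4422 ± 1691 CPM in rich and 2082 ± 1346 CPM in poor libraries (SD, n = 10 each), a log2 difference of 1.48. Pck1, which supplies glycerol phosphate for re-esterification in fat, and Aqp7, the glycerol channel, differed by 1.39 and 1.20.

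Genes of fatty acid oxidation separated the classes in most cases. Of 20 tested genes 19 were higher and 1 lower, where 11.7% and 5.41% of all genes were, with a median of 1.23. In both strains 12 of the higher ones separated without overlap, against 1.6% of all genes. Acadvl, which opens the oxidation of very long chain fatty acids, measured 1695, 1422, 1536, 1515 and 1148 CPM in 129X1 rich libraries, against 1105, 949, 872, 789 and 617 CPM in 129X1 poor libraries. Among B6 libraries, rich ones had 1434, 941, 943, 827 and 1047 CPM, against 341, 365, 355, 424 and 170.4 CPM in poor ones. Each rich library exceeded every poor library of its strain, and the log2 difference was 1.39 (SE 0.19, edgeR adjusted p = 4.1e-05). Acadl, Hadhb and Etfdh, which carry out later steps and pass the electrons on, differed by 1.27, 1.42 and 1.31, and Eci2, an isomerase for unsaturated chains, by 0.51. In peroxisomes, 12 of 13 genes were higher, against the same 11.7% of all genes, with a median of 0.77.

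The exception was Cpt1a, the liver form of the enzyme that admits fatty acids to mitochondria. It measured 63.8, 81.0, 77.5, 76.3 and 87.9 CPM in 129X1 rich libraries, against 103.6, 97.6, 134, 106.8 and 94.4 CPM in 129X1 poor libraries. In B6 it measured 76.4, 99.9, 100.13, 107.1 and 100.04 CPM in rich libraries, against 146.1, 124, 123, 128 and 148 CPM in poor libraries. Every rich library lay below every poor library of its strain, the reverse of the other genes of the pathway, with a log2 difference of -0.29 (SE 0.07, edgeR adjusted p = 0.00447). Without the libraries with at least 10 CPM of Rag1 it was -0.22 and did not pass (edgeR adjusted p = 0.149). Cpt1b, the form of muscle and brown fat, went the other way, with 7.64 ± 2.40 CPM in rich and 3.08 ± 1.62 CPM in poor libraries (SD, n = 10 each) and a log2 difference of 1.63 (SE 0.20, edgeR adjusted p = 2.9e-05). CPM is not scaled by transcript length, so the levels of the 2 forms are not comparable, only their differences.

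All 21 tested genes of the citric acid cycle and of pyruvate entry were higher, against 11.7% of all genes, with a median of 1.10. Of these, 14 separated without overlap in both strains, against 1.6% of all genes. Cs, citrate synthase, Idh3a, a subunit of isocitrate dehydrogenase, and Suclg1, a subunit of succinyl-CoA ligase, differed by 1.11, 1.34 and 1.34. Pdk4, which blocks pyruvate dehydrogenase when fat is burned, averaged 757 ± 263 CPM in rich and 334 ± 216 CPM in poor libraries, a difference of 1.64. All 15 genes of branched-chain amino acid breakdown were higher with a median of 0.89, including Bckdhb, a subunit of the dehydrogenase that commits these amino acids, at 0.89.

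The respiratory chain was higher almost without exception. All 36 complex I genes, 4 of 4 of complex II, 9 of 9 of complex III, 13 of 15 of complex IV and 12 of 16 of complex V were higher. Over all tested genes the share was 11.7%. The medians of the 5 complexes were 0.84, 1.05, 1.05, 0.90 and 0.64. Sdhd, the membrane anchor of complex II whose promoter is printed above, measured 544, 482, 594, 502 and 374 CPM in 129X1 rich libraries, against 408, 342, 313, 319.9 and 271 CPM in 129X1 poor libraries. B6 levels were 489, 356, 363, 337 and 401 CPM in rich libraries, against 187, 190.7, 185.7, 211 and 129 CPM in poor libraries. The classes overlapped by 1 library on each side in 129X1 and stood apart in B6, with a log2 difference of 1.03 (SE 0.13). Uqcrc1, a core protein of complex III, differed by 1.10, Ndufs1, a core subunit of complex I, by 1.01, Cox4i1, the common form of a complex IV subunit, by 0.78, and Atp5b, the catalytic subunit of ATP synthase, by 0.99. Cox7a2l, an assembly factor of supercomplexes, had nearly equal levels of 90.5 ± 11.0 CPM in rich and 88.4 ± 9.87 CPM in poor libraries, and its log2 difference of 0.21 after scaling had an edgeR adjusted p of 0.0168.

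The 1 lower gene of the respiratory chain was Atpif1, the protein that inhibits ATP synthase. It measured 27.5, 38.5, 63.1, 30.5 and 30.6 CPM in 129X1 rich libraries, against 62.3, 58.4, 59.8, 59.5 and 65.9 CPM in 129X1 poor libraries. Among B6 libraries, rich ones had 36.5, 60.3, 54.7, 59.6 and 52.3 CPM, against 69.5, 86.1, 79.2, 70.8 and 77.4 CPM in poor ones. A single 129X1 rich library stood among the poor ones, and in B6 the classes did not overlap; the log2 difference was -0.45 (SE 0.11, edgeR adjusted p = 0.0065). Without the libraries with at least 10 CPM of Rag1 it was -0.43 and did not pass (edgeR adjusted p = 0.102).

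The mitochondrial genome made the largest single contribution to the counts. Of its 13 protein genes 7 were tested, and all 7 were higher, against 11.7% of all genes, with a median of 1.17. The other 6 had at most 55 counts in any library, so they carry no information here. The 13 genes summed to 7.02% to 11.8% of all counts in rich libraries and 2.23% to 8.42% in poor libraries. mt-Co1, the core subunit of cytochrome c oxidase, measured 37487, 31692, 28152, 35181 and 31203 CPM in 129X1 rich libraries, against 26149.5, 20209.9, 21461, 24759.9 and 17816 CPM in 129X1 poor libraries. In B6 it measured 33847, 23077, 24635, 23561 and 29372 CPM in rich libraries, against 11427, 11125, 12141, 14388 and 7972 CPM in poor libraries. Neither strain's classes overlapped, and the log2 difference was 1.09 (SE 0.17, edgeR adjusted p = 0.00015).

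Added over the 2034 higher genes, mean CPM in rich minus poor libraries came to 13.3% of a library. The 7 mitochondrially encoded genes made up 31.2% of that gain, 13 lipid synthesis genes 12.0% and 18 common adipocyte genes 9.11%. The 74 nuclear genes of complexes I to V held 7.16%, 21 citric acid cycle genes 5.41%, and the 17 brown fat effectors other than Ucp1 held 1.42%. These lists share members in places. The 10 genes with the largest gains held 44.1%, led by mt-Co1 with 9.87%, mt-Cytb, the gene of cytochrome b, with 7.75% and Scd1 with 5.44%. The genes called lower summed to a loss of 2.15% of a library. CPM add to the same total in every library, so the rest of the gain was offset in genes not called lower. Of these lists, the mitochondrially encoded genes thus held the largest share of the gain and the effectors without Ucp1 the smallest. Ucp1 had no p-value and so is left out of the effectors and of the gain. Its mean was 2159 CPM in rich and 867 CPM in poor libraries.

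Genes of sugar breakdown were mostly higher. Of 18 glycolysis genes 13 were higher, with a median of 0.80. Slc2a4, the insulin-responsive glucose transporter, averaged 279 ± 75.9 CPM in rich and 147 ± 72.1 CPM in poor libraries (SD, n = 10 each), a log2 difference of 1.23. Slc2a1, the general transporter, averaged 50.3 ± 16.5 CPM in rich and 63.6 ± 20.9 CPM in poor libraries and did not pass (-0.18, edgeR adjusted p = 0.508). Hk2, the inducible hexokinase, differed by 1.24, and Hk1, the general one, did not pass (-0.13, edgeR adjusted p = 0.437). The difference between isoforms was not tested. Fbp2, the muscle form of fructose bisphosphatase, was among the largest differences at 1.81. Genes of creatine and calcium cycling, heat sources that do not need UCP1, gave 2 higher genes of 13, a share near the 11.7% of all genes called higher, with a median of 0.05 under TMM scaling and -0.10 under total counts, where 1 was higher and 1 lower. Under TMM the 2 were Alpl, a phosphatase used in creatine cycling, at 0.88, and Atp2a2, the calcium pump of the endoplasmic reticulum, at 0.36.

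**Figure D3:**
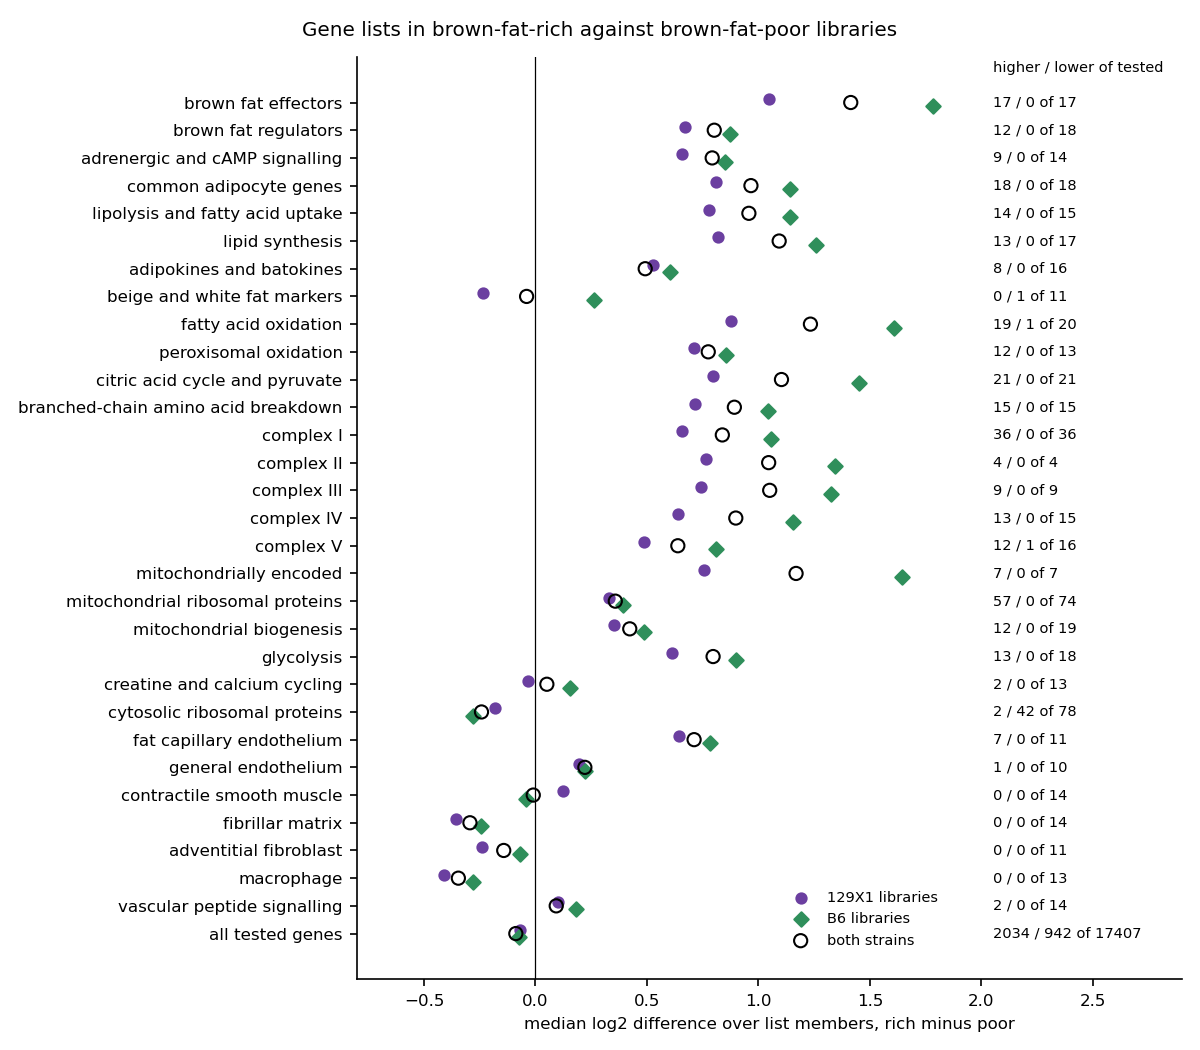
Median log2 difference (rich minus poor) over the tested genes of each list, fitted in 129X1 libraries alone (filled circles), in B6 libraries alone (diamonds) and in both strains (open circles), with counts of higher and lower genes at the right. The effectors lie at 1.05 in 129X1 and 1.78 in B6, while matrix, adventitial and macrophage lists lie below 0 in both.

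The strains gave the same direction for nearly all genes called higher. Fitted alone, the 129X1 libraries gave 616 genes higher and 17 lower (3.84% of genes called), and the B6 libraries 865 higher and 3 lower (5.34%). Of the 607 genes called higher in 129X1 that were tested in B6, 607 had a positive difference there and 480 were called, with a median of 1.03, where 41.0% of all genes were positive. Of 859 genes called higher in B6 and tested in 129X1, 855 were positive and 480 were called, with a median of 0.67, where 41.4% of all genes were positive. The medians of the effectors were 1.05 in 129X1 and 1.78 in B6, and those of fatty acid oxidation 0.88 in 129X1 and 1.61 in B6. A test of the strain-by-class term called 0 of 17407 genes (edgeR quasi-likelihood test), with 354 genes at an unadjusted p below 0.05 and 2 genes called by DESeq2. The term was -0.85 for Ucp1, whose mean in rich libraries was 2.14 times that in poor libraries in 129X1 and 3.95 times in B6.

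The counts of other genes in the 16 libraries outside the classes did not enter the fit of rich against poor libraries, although their Ucp1 values took part in the ranking and are the regressor here. A slope per doubling of Ucp1, with strain as a covariate, called 0 of 16401 genes at adjusted p below 0.05 (edgeR quasi-likelihood test); at unadjusted p below 0.05, 1187 genes rose with Ucp1 (7.24%) and 681 fell (4.15%). Of the genes higher in rich libraries 1242 of 1999 had a positive slope, or 62.1%, beside 45.8% of all tested genes. Of the effectors 15 of 17 slopes were positive with a median of 0.52, and 7 passed an unadjusted p of 0.05. All 21 citric acid cycle genes, 18 of 18 common adipocyte genes and 18 of 20 fatty acid oxidation genes had positive slopes, with medians of 0.34, 0.32 and 0.40. Letmd1 gave 0.63 (unadjusted p = 0.00549 by edgeR) and Cidea 0.58 (unadjusted p = 0.0342 by edgeR). Of the genes lower in rich libraries 687 of 918 had positive slopes, or 74.8%, which is the opposite direction. Counts were also simulated for the same libraries, each gene drawn on its own without strain differences or shared tissue content. There a log2 difference of 1 between rich and poor libraries was recovered in 55% of genes. In the middle libraries a log2 slope of 1 per doubling of Ucp1 was recovered in 18% and a slope of 0.5 in 0%. The shares of the 2 layouts are thus not for the same change.

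**Figure D4:**
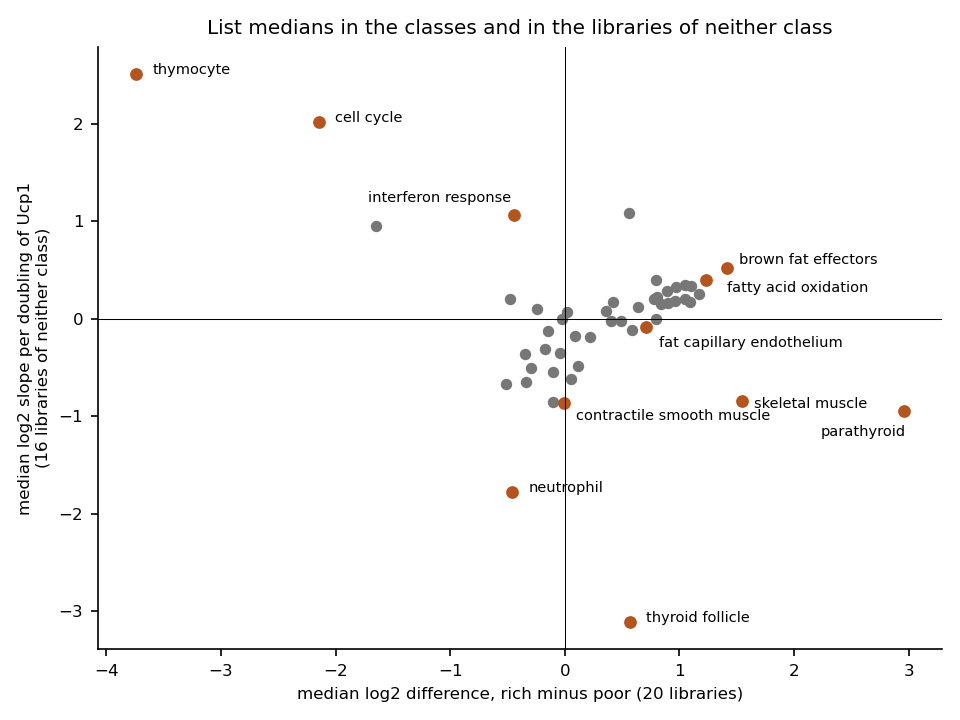
Each point is a list, with the median log2 difference between rich and poor libraries (horizontal axis) against the median slope per doubling of Ucp1 in the 16 libraries of neither class (vertical axis). Brown fat, oxidation and citric acid cycle lists lie at positive values on both axes, while the thymocyte and cell cycle lists lie at negative differences (-3.74 and -2.15) and positive slopes (2.51 and 2.02).

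Genes of the drug pathway were read because sacubitril blocks neprilysin and valsartan the angiotensin receptor. Of 14 tested genes of vascular peptide signalling 2 were higher and none lower, a share near the 11.7% of all genes called higher, with a median of 0.09 under TMM scaling and -0.09 under total counts. Mme, the gene of neprilysin, measured 102.8, 103.3, 112.8, 128.5 and 123.0 CPM in 129X1 rich libraries, against 91.5, 76.6, 78.1, 69.4 and 51.6 CPM in 129X1 poor libraries. The B6 rich libraries had 109.01, 64.3, 64.6, 53.0 and 95.4 CPM, against 27.5, 33.0, 35.4, 41.6 and 20.7 CPM in the B6 poor libraries. The classes did not overlap in either strain, the log2 difference was 1.15 (SE 0.17, edgeR adjusted p = 6.6e-05), and the slope in the middle libraries was 0.73 (unadjusted p = 0.0425 by edgeR). The classes were not balanced over treatments, with 1 Val library of 10 in the rich and 6 of 10 in the poor class. Sac/val libraries were 5 of 10 rich and 2 of 10 poor. With treatment and regimen as covariates Mme was still called, and the part of treatment in its difference was not tested.

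Npr3, the clearance receptor of natriuretic peptides, measured 26.4, 22.6, 25.2, 29.4 and 40.9 CPM in 129X1 rich libraries, against 19.7, 21.0, 18.5, 16.5 and 14.9 CPM in 129X1 poor libraries. B6 levels were 30.6, 19.3, 16.2, 18.5 and 23.4 CPM in rich libraries, against 8.59, 9.39, 7.96, 11.2 and 10.7 CPM in poor libraries. It too separated in both strains, with a log2 difference of 1.12 (SE 0.15, edgeR adjusted p = 4e-05) and a slope of 0.50 in the middle libraries (unadjusted p = 0.247 by edgeR). Agtr1a, the main angiotensin receptor, averaged 11.2 ± 3.49 CPM in rich and 11.1 ± 3.94 CPM in poor libraries (SD, n = 10 each), a log2 difference of 0.20 that did not pass (edgeR adjusted p = 0.462).

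Of 11 genes of fat capillary endothelium 7 were higher, with a median of 0.71, where 11.7% of all genes were called higher. The list shares Fabp4 and Cd36 with the common adipocyte genes, Gpihbp1 with the list of lipid release and uptake and Kdr with general endothelium. Adipocytes and vessels therefore cannot be told apart in its count. Of 10 general endothelial genes only Kdr passed, a share near that of all genes called higher, with a list median of 0.22. Gpihbp1, which holds lipoprotein lipase on capillaries, averaged 44.7 ± 9.63 CPM in rich and 26.8 ± 8.32 CPM in poor libraries (SD, n = 10 each), a difference of 0.96. The receptors Kdr and Flt1 differed by 0.79 and 0.68, and their ligand Vegfa by 1.00 (SE 0.12). For Flt1 and Vegfa the classes did not overlap in either strain, and for Kdr they overlapped in 129X1. In the middle libraries the slopes of Vegfa, Gpihbp1, Kdr and Flt1 were -0.46, -0.22, -0.10 and -0.24, none passing an unadjusted p of 0.05, and the list's median slope was -0.08, beside -0.05 over all genes.

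Genes of the artery wall gave few calls. None of 14 contractile smooth muscle genes, 14 fibrillar matrix genes, 11 adventitial genes and 13 macrophage genes passed, where 17.1% of all genes did. Their medians were -0.01, -0.29, -0.14 and -0.35. Under total-count scaling 3 macrophage genes were lower, where 4847 of 17407 genes were. Col1a1, the main fibrillar collagen, averaged 5102 ± 2899 CPM in rich and 7659 ± 3842 CPM in poor libraries, and Cd68, a macrophage marker, 150.7 ± 105 CPM in rich and 208 ± 122 CPM in poor libraries, with edgeR adjusted p of 0.313 and 0.603. The spread within a class was large for these tissues: contractile genes summed to 1566 to 4116 CPM in rich and 829.5 to 6286 CPM in poor libraries.

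Neighbouring tissues entered unevenly, and beyond the alternatives given here their part in the results was not tested. The 12 thymocyte genes summed to 4.95 to 1889 CPM in rich libraries and 6.67 to 9014 CPM in poor libraries, and Rag1 reached 10 CPM in 2 rich, 5 poor and 9 other libraries. Parathyroid genes summed to 1.07 to 7599 CPM in rich and 0.815 to 3809 CPM in poor libraries, and skeletal muscle genes to 33.8 to 36436 CPM in rich and 78.4 to 32206 CPM in poor libraries. The muscle sums had medians of 9993 CPM in rich and 7987 CPM in poor 129X1 libraries, and of 8143 CPM in rich and 712 CPM in poor B6 libraries, with list medians of the log2 difference of 0.20 in 129X1 and 2.86 in B6. Genes that muscle also uses were fitted again with skeletal muscle, thymocyte and thyroid scores as covariates. The log2 differences were 1.66 for Cox7a1, 1.61 for Cox8b, 1.70 for Cpt1b, 1.27 for Ucp3 and 1.84 for Fbp2, and these 5 genes were still called. Muscle levels went with the classes in B6, so muscle and brown fat cannot be told apart there by this fit. None of the 12 thymocyte, 3 parathyroid and 13 skeletal muscle genes tested passed, where 17.1% of all genes did. Their medians were -3.74, 2.96 and 1.54. Thyroid follicle genes stayed at or below 19.0 CPM in all poor libraries and reached 8222 CPM in a rich one.

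**Figure D5:**
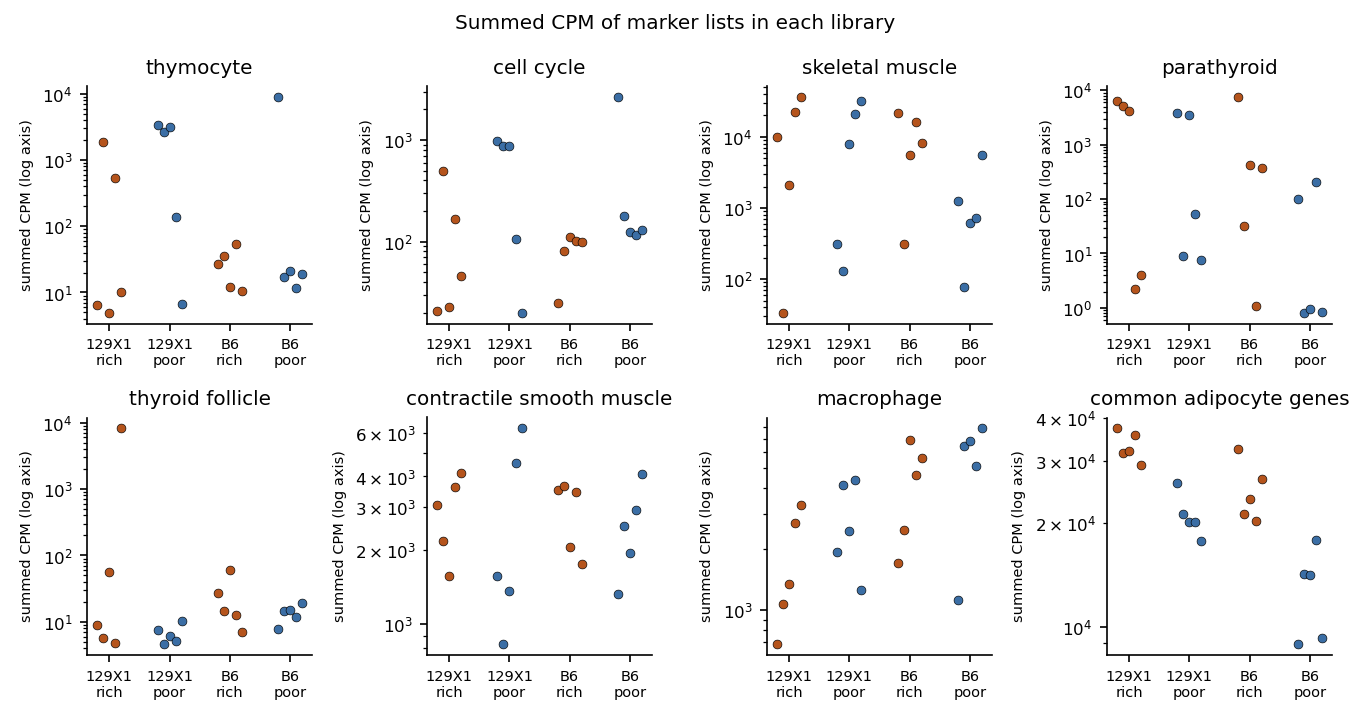
Summed level (CPM, log axis) of 8 marker lists in each rich (orange) and poor (blue) library of 129X1 and B6, in order of Ucp1 rank. Thymocyte genes reach 9014 CPM in a poor B6 library and 1889 CPM in a rich 129X1 library, and the classes overlap within each strain except for common adipocyte genes, higher in rich libraries of both strains, and cell cycle genes, lower in rich libraries of B6.

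Most genes called lower in rich libraries lost that call under several alternatives. Of the 942 lower genes, 84 were called with treatment and regimen as covariates (8.92%) and 148 with 6 libraries per class and strain (15.7%), against 1415 and 1642 of the 2034 higher genes. With libraries of at least 10 CPM of Rag1 left out, 925 of the 927 lower genes tested kept their sign and 21 of 942 were called, or 2.23%, whereas of the 2034 higher genes all kept their sign and 1459 were called, or 71.7%. That fit called 1751 genes higher and 75 lower on 13 libraries, with Val prophylactic replicate 1 the only poor 129X1 library left. Of 12 cell cycle genes 5 were lower, against 5.41% of all genes, with a median of -2.15. Under total-count scaling all 12 were lower, where 4847 of 17407 genes were. Without the libraries of at least 10 CPM of Rag1, 0 were called by edgeR, with a median of -0.36. Top2a, a topoisomerase of dividing cells, averaged 27.7 ± 37.2 CPM in rich and 162 ± 227 CPM in poor libraries and did not pass (edgeR adjusted p = 0.0555). Cytosolic ribosomal protein genes gave 42 lower and 2 higher of 78, with a median of -0.24. Mitochondrial ribosomal protein genes gave 57 higher of 74, with a median of 0.36. Over all tested genes 5.41% were lower and 11.7% higher. Under total-count scaling 72 cytosolic genes were lower and none higher, and 30 mitochondrial ones were higher with a median of 0.18. That scaling called 4847 of all 17407 genes lower and 1410 higher. Without the same libraries 0 cytosolic ribosomal genes were lower by edgeR, with a median of -0.15. Among single lower genes that separated in both strains, Elmo1, a regulator of cell engulfment and migration, Gpsm2, a spindle orientation protein, and Emb, a companion of lactate transporters, differed by -0.58, -0.57 and -0.50, and none of them passed without those libraries.

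Some transcripts that followed Ucp1 closely lie beside brown fat genes. Poln, a DNA polymerase gene, measured 23.6, 23.4, 28.5, 19.9 and 19.0 CPM in 129X1 rich libraries, against 17.4, 14.5, 11.9, 12.1 and 5.57 CPM in 129X1 poor libraries. Among B6 libraries, rich ones had 25.9, 18.3, 14.4, 13.8 and 14.0 CPM, against 5.54, 5.13, 4.21, 5.01 and 1.98 CPM in poor ones. The classes did not overlap, the log2 difference was 1.62 (SE 0.24), and its Spearman correlation with Ucp1 over 36 libraries centred within strain was 0.94, given as a description. Poln lies on the minus strand at chr5:34007179-34169448 of GRCm38, and its 3′ end is 1262 bases from the 3′ end of Nat8l, the enzyme that makes N-acetylaspartate in brown fat, on the plus strand at chr5:33995984-34005916. Nat8l averaged 144 ± 49.2 CPM in rich and 83.1 ± 35.4 CPM in poor libraries, a log2 difference of 1.02 with a correlation of 0.72. Gm9899, an unnamed transcript on the minus strand at chr5:30573987-30588619, differed by 1.66 and overlaps the start of Kcnk3 on the plus strand by 450 bases. The strand setting of the counting was not given in the sources used here, so reads of Gm9899 and Kcnk3 in the overlap may not be told apart.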

How the data were processed

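Left carotid artery RNA was sequenced in 36 libraries of 3 mice in each of 12 groups, with Illumina TruSeq Stranded mRNA kits per the labels. The deposited table held whole-number counts per gene symbol that the authors made, per the submitters' processing notes, with Trimmomatic 0.36, STAR 2.5.2b and featureCounts of Subread 1.5.0p3 on GRCm38; annotation release and strand setting were not given in the sources used here. Whether the mice of a group were handled separately is not stated, so p-values measure the spread between libraries. No 2 libraries held identical counts, and the highest correlation of log2 CPM between libraries was 0.993.

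CPM were counts over the column total of 49568 symbols, and totals ran from 18962081 to 28967579 counts, which limits the precision of genes with few counts. Genes were kept by filterByExpr over strain and class (17407, or 35.1% of symbols), scaled by TMM and fitted with edgeR 4.0.16 quasi-likelihood tests and Benjamini-Hochberg adjustment below 0.05 (R 4.3.3, limma 3.58.1). Ucp1 was tested against labels by permuting log2 CPM within strata. DESeq2 1.42.0, other scalings, filters, class sizes, rankings, covariates and left-out libraries were alternatives. The fits were tested on simulated data, each gene drawn on its own without strain differences or shared tissue content. The shares below therefore need not hold in the real libraries, where genes vary together. At log2 differences of 0.5, 1, 2 and 3 the comparison of rich and poor libraries recovered 16%, 55%, 92% and 94% of changed genes. It called 7 of 16959 unchanged genes. In the middle libraries log2 slopes of 0.5, 1, 2 and 3 per doubling of Ucp1 were recovered in 0%, 18%, 48% and 73%. Python 3.11.15, pandas 2.3.3, numpy 2.4.6, scipy 1.17.1 and matplotlib 3.10.9 made tables and figures, and positions are 1-based on GRCm38.

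The classes and lists were chosen with earlier results of these data known. Genes were named by rule: the Ucp genes; in each list the 3 with the highest mean CPM and the 3 with the smallest p; the 12 largest differences in each direction among genes with adjusted p below 0.05, a mean of at least 10 CPM and no overlap in either strain; and the 10 with the highest rank correlation with Ucp1. Some genes that the rule names are not reported here. Of 93 genes named with values, 33 lie outside it and were chosen after their values were seen: Dio2, Otop1, Fabp3, S100b, Mpzl2, Ppargc1a, Ppargc1b, Prdm16, Ebf2, Ppara, Adrb1, Adrb3, Nrg4, Ptgds, Plin1, Pnpla2, Pck1, Acacb, Thrsp, Cpt1a, Eci2, Ndufs1, Cox7a2l, Atpif1, Slc2a4, Slc2a1, Hk2, Hk1, Flt1, Agtr1a, Cd68, Nat8l and Kcnk3.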

Additional observations from a re-analysis of the deposited data

Results flagged for a closer look

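Values of 13 genes were read in 4 sets of 5 libraries each, 52 sets in all, for a library whose gap to its nearest neighbour exceeded 0.71 of the set's range, and 4 sets held one. Chance would flag about 5% of sets of independent, normally distributed values. These sets were cut by Ucp1 rank and all genes were read in the same libraries, so that rate need not hold here. In the poor B6 libraries, B6 vehicle prophylactic replicate 3 had 76.1 CPM of Ucp1, the next lowest having 365 CPM, and 11.5 CPM of Cox7a1, the next lowest having 36.7 CPM. In the rich B6 libraries, B6 Sac/val therapeutic replicate 1, the one with most Ucp1, had 194 CPM of Cox7a1, the next highest having 141 CPM, and 76.4 CPM of Cpt1a, the next lowest having 99.9 CPM. Both libraries lie at the ends of the Ucp1 ranking of their strain.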

How the results depend on the processing

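Against 2976 genes between rich and poor libraries, the count was 6257 with total counts, 1836 with 6 libraries per class and strain, 1538 with treatment and regimen as covariates, 1826 without libraries at or above 10 CPM of Rag1, 868 in B6 alone and 633 in 129X1 alone; fewer libraries entered the last 3, and for the others the cause was not tested. Leaving out 1 library gave 2004 (without B6 Sac/val therapeutic replicate 1) to 4318 genes (without 129X1 Sac/val therapeutic replicate 1). Higher calls then ran from 1664 to 2254, while lower calls ran from 340 to 2064 and moved by over 1.5 times for 12 of 20 libraries. DESeq2 called 4169 genes and no filter on low counts 2174. In the middle libraries no filter gave 3 genes, and all 36 libraries together gave 1942; leaving out 1 library, added after seeing the data, gave 0 to 0 genes there and 0 to 0 for the strain-by-class term, for which DESeq2 called 2. The Ucp1 difference between Sac/val and vehicle libraries ran from -0.12 to 0.42 with 1 library left out, that of Val from -0.60 to -0.060, that of regimen from 0.038 to 0.40 and that of strain from 1.39 to 1.75. The lowest value of each came without B6 vehicle prophylactic replicate 3. Leaving out the libraries with Rag1 could be fitted for Sac/val alone among these tests (0.12). Of 92 named genes under 13 alternatives, 1101 of 1196 values kept direction and side of the threshold, 92 lost the call, 3 gained it and 0 reversed; with 1 library left out 24 of 1840 lost it. Calls lost without the Rag1 libraries included Cpt1a, Atpif1, Elmo1, Gpsm2, Emb, Scd1, Fasn, Ebf2, Adrb3, Car3 and Tmem26, in a fit of 13 in place of 20 libraries; there Car3 differed by 0.79 in place of 0.84 and Tmem26 by -0.63 in place of -0.69. At these depths, counts per gene limit only genes of few CPM. No paired analysis was possible because the labels give groups no shared replicate numbers.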

Other observations

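Of 14 interferon response genes 2 were lower in rich than in poor libraries and none higher, where 5.41% of all genes were lower. The median log2 difference was -0.45. Under total-count scaling 7 of the 14 were lower, where 4847 of 17407 genes were. In the 16 libraries of neither class all 14 slopes were positive, with a median of 1.07 per doubling of Ucp1. Of 8 genes of haem synthesis, which supplies the cytochromes, 5 were higher with a median of 0.41, and of 19 genes of mitochondrial biogenesis 12 were higher with a median of 0.42. None of 9 Schwann cell genes and none of 10 genes of sympathetic neurons and glomus cells passed by edgeR, where 17.1% of all genes did. Their medians were 0.11 and -0.52. By biotype, 1714 protein-coding genes of 14709 tested were higher and 853 lower, and 128 long non-coding RNA genes of 861 were higher and 23 lower. Over all 17407 tested genes 11.7% were higher and 5.41% lower, and a difference between biotypes was not tested.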
